A study of Mus musculus with 4 samples.

Results

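The nuclear-encoded respiratory chain genes are the genes outside the mitochondrial genome that code for subunits of complexes I to V and for some of their assembly factors. They were chosen by name, as genes starting with Nduf, Sdha, Sdhb, Sdhc, Sdhd, Uqcr, Cox4i, Cox5, Cox6, Cox7 or Atp5, with at least 50 UMIs over the 4 sections and without pseudogenes or deprecated probes. Of 32285 genes, 94 carried such a name and 93 passed the minimum. Atp5g2 had 0 UMIs and was left out, and the lowest genes inside were Cox7b2 with 296 UMIs, Ndufaf6 with 324 and Cox4i2 with 330. The 93 genes comprised 36 subunits of complex I, 4 of complex II, 8 of complex III, 17 of complex IV and 16 of complex V, together with 8 assembly factors of complex I and 4 of complex II. Ndufa4 and Ndufa4l2 were placed with complex IV. The other genes, Cox7a2l among them, were grouped by name alone.

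The sections came from formalin-fixed, paraffin-embedded pancreas of C57Bl/6 mice of 4 weeks of age. All mice carried Pdx1-Cre, whose promoter drives recombination in the pancreatic epithelium, and stromal, vascular and immune cells are not its known target. Of 4 sections, 2 were labelled Ehmt2+/+ and 2 Ehmt2fl/fl, the conditional knockout of the histone methyltransferase Ehmt2 (G9a). All mice were fasted for 12 h, received 8 hourly injections of 50 μg/kg caerulein, an analogue of cholecystokinin used to provoke acute pancreatitis, and were euthanized 18 h after the first dose. No saline section was analysed here.

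The respiratory chain sits in the inner mitochondrial membrane. Complexes I and II pass electrons from NADH and succinate to ubiquinone, complex III passes them to cytochrome c, and complex IV reduces oxygen, while complexes I, III and IV pump protons that complex V, the ATP synthase, uses to make ATP. Nuclear genes encode most subunits and are known targets of the transcription factors NRF1, GABPA, YY1 and ERRα. Acinar cells, which make the digestive enzymes, use much ATP for protein synthesis and secretion.

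Ehmt2+/+ replicate 1 stood apart from the other 3 sections. It held 43803829 UMIs over tissue against 7000825 to 8697030, with a median of 6285 UMIs per spot against 759 to 932. The 37 digestive enzyme genes took 65.1% and 53.0% of UMIs in the Ehmt2+/+ sections and 22.3% and 21.4% in the Ehmt2fl/fl sections, so levels are given as CPM, UMIs scaled to a total of 1000000 outside these genes, unless stated otherwise. The 1094 olfactory receptor genes, for which the pancreas is not a known site of expression and which serve here as a measure of background, took 0.0872% of these UMIs in Ehmt2+/+ replicate 1 and 1.31%, 1.27% and 1.83% in Ehmt2+/+ replicate 2 and Ehmt2fl/fl replicates 1 and 2. The part of this background in each result was not tested except where a value without it is given. Ehmt2 itself was at 19.7 and 3.79 CPM of all UMIs in the Ehmt2+/+ sections and at 10.4 and 11.9 in the Ehmt2fl/fl sections, which did not separate the labels, and whether its probes lie in the deleted part was not tested. On this scale 5% of olfactory receptor genes exceeded 0.571 and 9.47 CPM in the Ehmt2+/+ sections and 17.1 and 21.9 in the Ehmt2fl/fl sections. Ehmt2 was above that level only in Ehmt2+/+ replicate 1. Each of 4 Y-linked genes had at most 1 UMI in either Ehmt2+/+ section and 36 to 150 in either Ehmt2fl/fl section, while Xist had 0 UMIs in all 4. Genotype and what sets the Y-linked genes apart, such as sex, cannot be told apart. The 13 genes of the mitochondrial genome had 0 UMIs in all sections, and the mitochondrially encoded subunits could not be followed.

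The promoters of 77 of the 93 genes were in the RefSeq sequences for GRCm38.p6, in 82 windows from 250 bases before to 50 bases after a start site. On either strand, the NRF1 core GCGCATGCG was in 10.98% of the 82 windows and 2.35% of the windows of all protein-coding genes, and the YY1 letters AAGATGGCG in 9.76% and 1.83%. The ERRα letters CAAGGTCA was in 4.88% and 1.34%, the ETS letters CCGGAAGTG, which GABPA binds, in 2.44% and 2.71%, and the SP1 box GGGGCGGGG in 13.4% and 15.4%. At least 1 of the 5 was in 39.0% of the windows and in 21.8% of those of all protein-coding genes. A match describes the letters and is not evidence of a bound site. The 4 promoters below belong to genes described in the results and were picked after the search because the 250 bases before their start site hold a match, shown in capitals. The matches on the opposite strands of Cox6a1 overlap.
Atp5f1, chr3:105959264-105959513, minus strand: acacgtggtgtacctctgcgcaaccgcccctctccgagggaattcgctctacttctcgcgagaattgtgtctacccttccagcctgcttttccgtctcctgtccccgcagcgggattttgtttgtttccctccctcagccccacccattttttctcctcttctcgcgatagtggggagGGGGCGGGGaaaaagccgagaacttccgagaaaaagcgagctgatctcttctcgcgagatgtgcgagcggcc
Ndufa13, chr8:69902021-69902270, minus strand: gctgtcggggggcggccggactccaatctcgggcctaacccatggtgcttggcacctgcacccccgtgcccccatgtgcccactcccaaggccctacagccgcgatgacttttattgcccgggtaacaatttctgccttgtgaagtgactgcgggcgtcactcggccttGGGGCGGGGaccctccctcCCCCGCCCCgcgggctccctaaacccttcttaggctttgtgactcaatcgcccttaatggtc
Cox6a1, chr5:115348959-115349208, minus strand: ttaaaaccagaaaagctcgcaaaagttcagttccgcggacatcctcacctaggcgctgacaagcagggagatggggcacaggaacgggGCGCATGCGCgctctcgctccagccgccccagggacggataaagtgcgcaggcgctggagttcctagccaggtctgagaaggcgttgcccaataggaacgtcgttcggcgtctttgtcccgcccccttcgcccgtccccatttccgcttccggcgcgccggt
Uqcrh, chr4:116075071-116075320, minus strand: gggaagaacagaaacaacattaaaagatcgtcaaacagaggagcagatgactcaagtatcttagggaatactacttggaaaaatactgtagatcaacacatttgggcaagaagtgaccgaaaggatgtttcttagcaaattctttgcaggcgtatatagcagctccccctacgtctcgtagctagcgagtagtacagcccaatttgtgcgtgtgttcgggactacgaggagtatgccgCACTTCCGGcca
The Atp5f1 window held the SP1 box at 72 bases before the start site, and the Ndufa13 window held it on each strand, at 81 and 62 bases. The Cox6a1 window held the NRF1 core on both strands, at 162 and 161 bases, and the Uqcrh window held the ETS letters at 12 bases.

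The respiratory chain genes took 1.70% and 1.30% of the UMIs outside digestive enzymes in the Ehmt2+/+ sections and 1.30% and 1.10% in the Ehmt2fl/fl sections. The means were 1.501% ± 0.280 and 1.20% ± 0.145 (SD, n = 2 sections each), and Ehmt2+/+ replicate 2 and Ehmt2fl/fl replicate 1 were level. As a share of all UMIs the order turned, with 0.594% and 0.612% in Ehmt2+/+ against 1.01% and 0.861% in Ehmt2fl/fl. With the olfactory receptor background taken off, which assumes an equal background for each of 20355 genes, the shares were 1.72% and 1.58% against 1.56% and 1.43%. That background was estimated at 1.62%, 24.5%, 23.7% and 34.1% of the UMIs outside digestive enzymes. Fewer cells of a type in a section and less RNA per cell cannot be told apart in such sums.

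The make-up of these UMIs varied little between sections. Complex I took 34.2%, 36.3%, 34.7% and 35.2% of the respiratory chain UMIs in Ehmt2+/+ replicates 1 and 2 and Ehmt2fl/fl replicates 1 and 2. Complex V took 32.4%, 29.9%, 31.9% and 31.3%, and complex IV 16.6%, 17.1%, 17.3% and 16.3%. The genotypes overlapped for these complexes. Complex III took 9.75% and 8.74% in Ehmt2+/+ and 7.55% and 7.499% in Ehmt2fl/fl, without overlap. The complex I assembly factors went the other way, with 3.02% and 4.02% against 4.18% and 4.81%, as did complex II, with 3.02% and 2.49% against 3.06% and 3.25%. Of the 3 gaps between genotypes that of complex II was the narrowest, and the complex II assembly factors overlapped. No test was run on these shares, and the background was not taken off them. Of the 8 complex I assembly factors, Ndufaf1 and Ndufaf6 did not rise above the highest 5% of olfactory receptor genes in 3 sections. The same held for Ndufaf7 in 1 section. Levels are counts of probes, so they are compared between sections and not between genes.

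**Figure D1:**
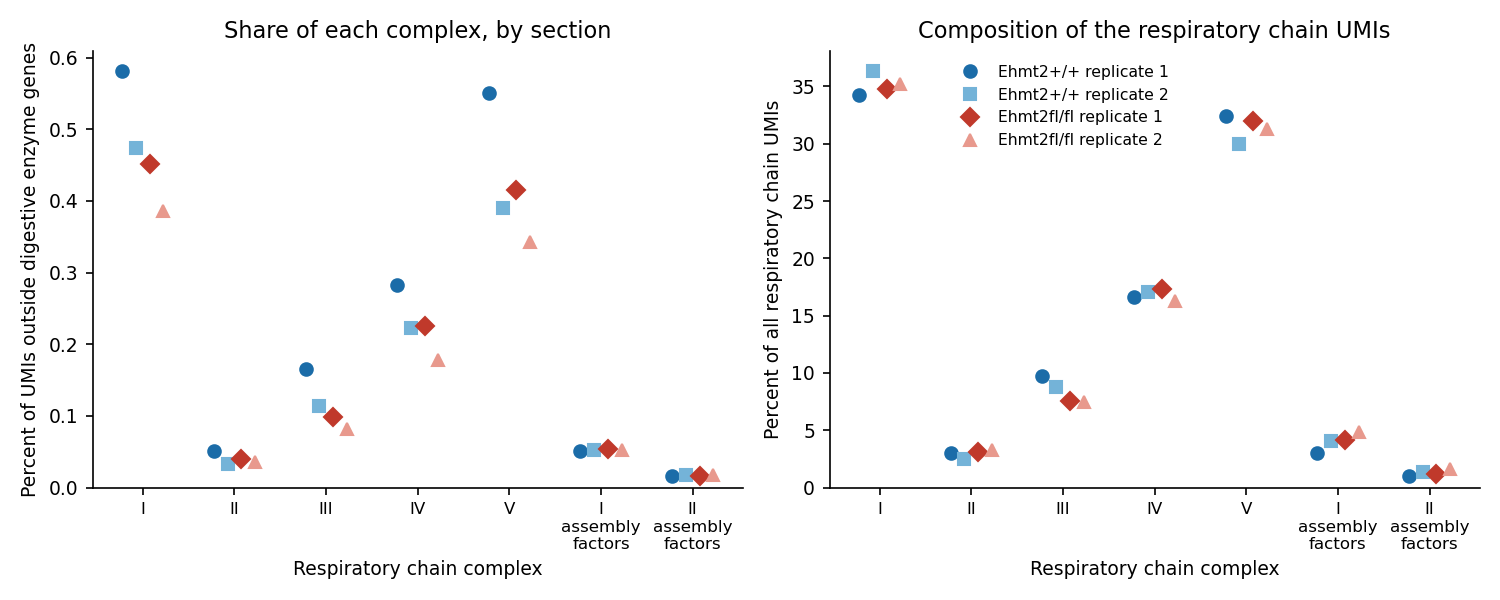
UMIs of each respiratory chain complex as percent of the UMIs outside digestive enzymes (left) and of all respiratory chain UMIs (right); each point is 1 section. Ehmt2+/+ replicate 1 is highest for complexes I to V on the left, while on the right complex I lies between 34.2% and 36.3% in all sections.

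Between genotypes, no respiratory chain gene passed the test. In the fit over 20066 genes 0.0548% were called higher and 0.0399% lower in Ehmt2fl/fl (edgeR, adjusted p under 0.05), 0.0947% in all, and 0 of the 93 were called. At an unadjusted p under 0.05 there were 14, all lower, against 4.64% of all genes that were lower at this p. DESeq2 called 2 lower, Ndufb9 and Cox7a2l, against 0.912% of all genes. The median log2 fold change was -1.34 for the 93 genes and 0.25 for all genes tested. These medians were -0.44 and -0.03 in a fit of genes well above the olfactory receptor background, and 0.74 and 1.64 without TMM factors. Without Ehmt2+/+ replicate 2 they were -2.12 and 0.52. Leaving out an Ehmt2+/+ section left only 1 in that group, so the counts that follow are not evidence of a genotype difference. Without Ehmt2+/+ replicate 2 there were 85 calls, 79 of them lower, while 36.3% of all genes were called lower. Without Ehmt2+/+ replicate 1 there was 1, Ndufb9, against 0.751% of all genes called lower, and the median was -0.19.

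Cox7a2l had the lowest log2 fold change of the 93. Its level was 399 and 148 CPM in Ehmt2+/+ and 88.6 and 90.2 in Ehmt2fl/fl, without overlap (log2 fold change -2.92, SE 1.14, edgeR adjusted p = 0.764). Without Ehmt2+/+ replicate 1 the log2 fold change was -0.88, in a fit that left only 1 Ehmt2+/+ section, so no p-value is given. Among genes well above background the log2 fold change was -1.66 (SE 0.48, edgeR adjusted p = 0.167). Ndufb9, an accessory subunit in the membrane arm of complex I, was at 153 and 99.8 against 47.6 and 42.7. Its log2 fold change was -2.65 (SE 1.02, edgeR adjusted p = 0.752), and without Ehmt2+/+ replicate 1 it was -1.30, again with only 1 Ehmt2+/+ section left. Among genes well above background it was -1.55 (SE 0.28, edgeR adjusted p = 0.0858). The limit of that fit, 50.1 CPM, applied to the mean over the 4 sections. Ndufb9 lay below it in both Ehmt2fl/fl sections and passed through its Ehmt2+/+ levels, so that fit does not free its difference from background. DESeq2 called Cox7a2l and Ndufb9 lower (adjusted p = 0.0212 and 0.0245). The levels are scaled to UMIs outside digestive enzymes, and the edgeR log2 fold changes to all UMIs with TMM factors, so they need not match. These factors went from 0.282 in Ehmt2+/+ replicate 1 to 2.11 in Ehmt2fl/fl replicate 2.

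Other complex I and III genes differed in whether the genotypes overlapped. Uqcrh, the hinge protein of complex III, was at 334 and 93.5 against 103 and 72.3, and the accessory complex I subunit Ndufa6 at 162 and 43.1 against 46.9 and 42.2. In both genes the second Ehmt2+/+ section lay between the Ehmt2fl/fl sections. Uqcrfs1, the Rieske iron-sulfur protein of complex III, was at 253 and 123 against 112 and 102, and Uqcrc1, a core protein of complex III, at 372 and 339 against 248 and 211. Neither overlapped between genotypes. Of the X-linked genes, Ndufa1 was at 187 and 82.5 against 79.0 and 56.0, Ndufb11 at 46.7 and 64.1 against 45.2 and 44.3, and Cox7b at 55.2 and 53.6 against 55.0 and 39.2. Cox7b overlapped between genotypes.

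Complex II and V genes mostly overlapped. Sdha, the flavoprotein subunit of succinate dehydrogenase, was at 170 and 71.9 against 102 and 104, and Sdhb, its iron-sulfur subunit, at 143 and 104 against 119 and 94.4. Atp5a1, the alpha subunit of the ATP synthase, was at 1012 and 702 against 775 and 679, and Atp5b, the catalytic beta subunit, at 171 and 83.0 against 102 and 75.7. Across the 93 genes both Ehmt2fl/fl sections lay below both Ehmt2+/+ sections for 28 and above them for 11, against 6.69% and 42.6% of all genes with at least 50 UMIs. Among genes well above background the numbers were 24 and 4 of 66, against 22.7% and 35.7%. Both shares rest on a limit of 50.1 CPM for the mean over the 4 sections. A gene high in Ehmt2+/+ replicate 1 alone could pass it, as Ndufa6 did at 162 against 43.1, 46.9 and 42.2. The numbers are therefore not free of background. As CPM of all UMIs the numbers were 1 and 73 of 93, against 0.684% and 91.1%. Ehmt2+/+ replicate 1 was the highest section for 61 of the 93 genes and the lowest for 23.

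The paralogues of complex IV subunits ranged from well above background to near it. Cox4i1, an early subunit of complex IV, was at 326, 215, 178 and 156 CPM in Ehmt2+/+ replicates 1 and 2 and Ehmt2fl/fl replicates 1 and 2. Its paralogue Cox4i2, known from lung and hypoxia, was at 3.01, 15.2, 16.2 and 18.9, and the level that 5% of olfactory receptor genes exceeded was 1.63, 20.2, 22.1 and 27.9. In the last 3 sections Cox4i2 was therefore below that level. Cox6a1 was at 512, 510, 446 and 290, and Cox6a2, its heart and muscle paralogue, at 3.07, 22.0, 24.3 and 27.8. Cox6b2, known from testis, was at 2.74, 37.2, 38.0 and 48.2, above the olfactory level in all 4 sections. It stayed below 50.1 CPM, the limit of genes well above background, in every section. Like the olfactory level, Cox6b2 was far lower in Ehmt2+/+ replicate 1 than in the other sections. Whether it is expressed in the pancreas was not tested. Cox7a1, a muscle form, was at 3.40, 21.3, 22.1 and 22.6. Its paralogue Cox7a2 was at 46.1, 25.9, 19.8 and 17.5, below the olfactory level in both Ehmt2fl/fl sections. Of the 93 genes, 13 were at or below the olfactory level in at least 1 section, among them Cox7b2 in all 4. The 5 highest genotype log2 fold changes, 0.40 to 0.77, belonged to Ndufa4l2, Cox4i2, Cox7b2, Cox6a2 and Cox6b2, and none was called. All 5 lay below the median of 1064 olfactory receptor genes in the same fit, 0.81.

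**Figure D2:**
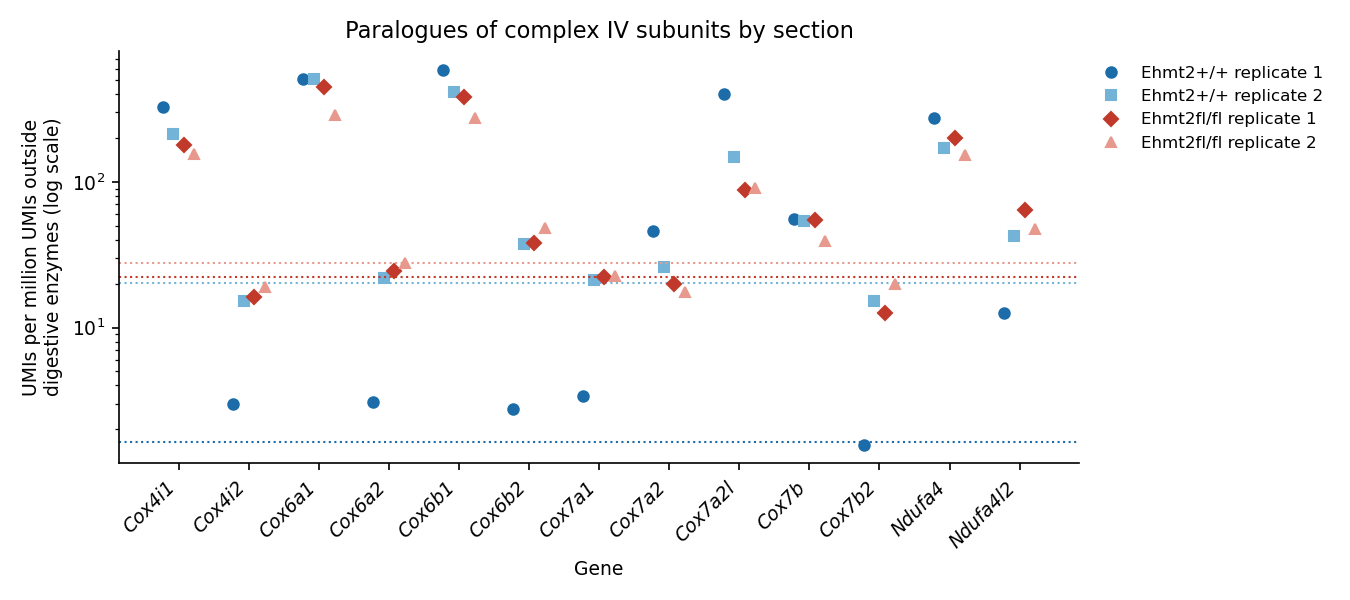
Levels of complex IV paralogues in CPM outside digestive enzymes (log axis); each point is 1 section and dotted lines mark, in the colour of the section, the level exceeded by 5% of olfactory receptor genes. Cox4i2, Cox6a2, Cox7a1 and Cox7b2 lie near these lines in 3 sections, and in Ehmt2+/+ replicate 1 they lie between 1.57 and 3.40. Cox7a2 lies below the line in both Ehmt2fl/fl sections.

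Along the share of Prss2, Cpa1, Ctrb1, Cela3b and Pnlip, products of acinar cells, the respiratory chain share was higher where the enzymes were high in 3 sections and level in the other. Spots with at least 500 UMIs were ranked within their section by the share of these 5 enzymes and divided into 5 equal parts. From the lowest to the highest part the respiratory chain share went from 1.68% to 1.70% in Ehmt2+/+ replicate 1, from 1.11% to 1.44% in Ehmt2+/+ replicate 2, from 1.20% to 1.41% in Ehmt2fl/fl replicate 1 and from 1.01% to 1.22% in Ehmt2fl/fl replicate 2. The olfactory receptor share went from 0.101% to 0.103%, from 1.95% to 0.908%, from 1.54% to 0.931% and from 2.19% to 1.34%. It was lower at the enzyme-rich end in the same 3 sections, and the median UMI number per spot was higher there in all 4. The ratio of the highest to the lowest part was 1.01, 1.30, 1.17 and 1.21, and 1.01, 1.11, 1.07 and 1.06 with the background taken off.

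**Figure D3:**
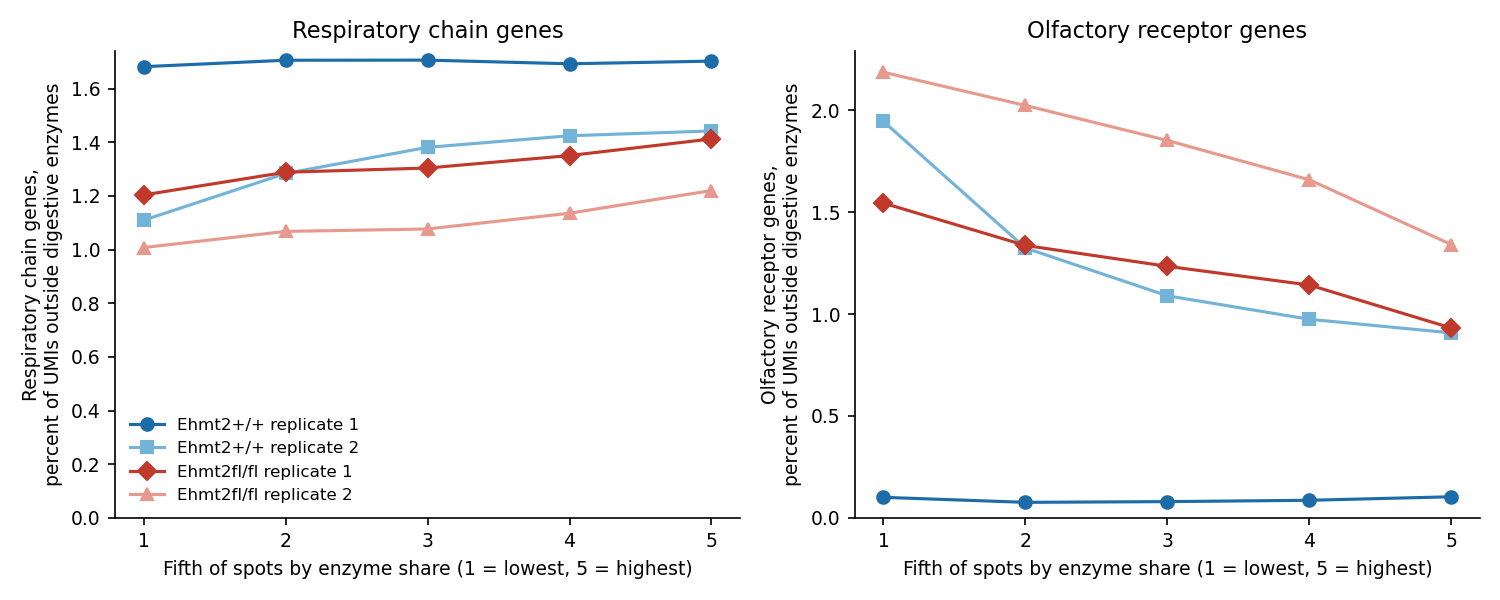
Respiratory chain genes (left) and olfactory receptor genes (right) as percent of the UMIs outside digestive enzymes, in 5 equal parts of the spots of each section ranked by enzyme share; each line is 1 section. On the left 3 lines go up, on the right the same 3 go down, and Ehmt2+/+ replicate 1 stays at 1.68% to 1.71%.

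Spots of like enzyme share could be set side by side across sections. With 20 to 30% of UMIs from the 5 enzymes, the respiratory chain share was 1.58% and 1.18% in Ehmt2+/+ and 1.38% and 1.19% in Ehmt2fl/fl. With 30 to 35% it was 1.66% and 1.28% against 1.46% and 1.28%. In both ranges the genotypes overlapped, and the olfactory receptor share again differed, at 0.143% and 1.71% against 1.02% and 1.46% in the first range. Ehmt2+/+ replicate 1 had 62 spots in the first range and 149 in the second.

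Gene by gene, 46 of the 93 respiratory chain genes were called higher and 1 lower in enzyme-rich than in enzyme-poor spots. In this fit over 18240 genes with section as a block, 11.3% were called higher and 2.64% lower, 14% in all (edgeR, adjusted p under 0.05). The median log2 fold change was 0.53 for the 93 genes, -0.04 for all genes and -0.27 for 778 olfactory receptor genes, of which 0 were called higher and 14 lower. Called higher were 20 of 36 complex I subunits, 2 of 4 of complex II, 5 of 8 of complex III, 5 of 17 of complex IV and 11 of 16 of complex V, with 3 of 8 complex I and 0 of 4 complex II assembly factors. In a fit of genes well above background the count was 7 higher and 1 lower of 66, against 8.58% and 12.2% of all genes there, and the medians were 0.15 and -0.01. Without TMM factors 8 were called higher, against 2.97% of all genes, and 7 lower, against 31% of all genes, and the medians were 0.10 for the 93 genes and -0.49 for all genes. With each spot thinned to 500 UMIs, 8 of 88 were called higher against 4.74% of all genes. Without Ehmt2+/+ replicate 1 the number called higher was 59, against 14.3% of all genes. Without Ehmt2+/+ replicate 2, Ehmt2fl/fl replicate 1 or Ehmt2fl/fl replicate 2 it was 8, 17 and 10, against 4.65%, 5.04% and 4.03%.

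**Figure D4:**
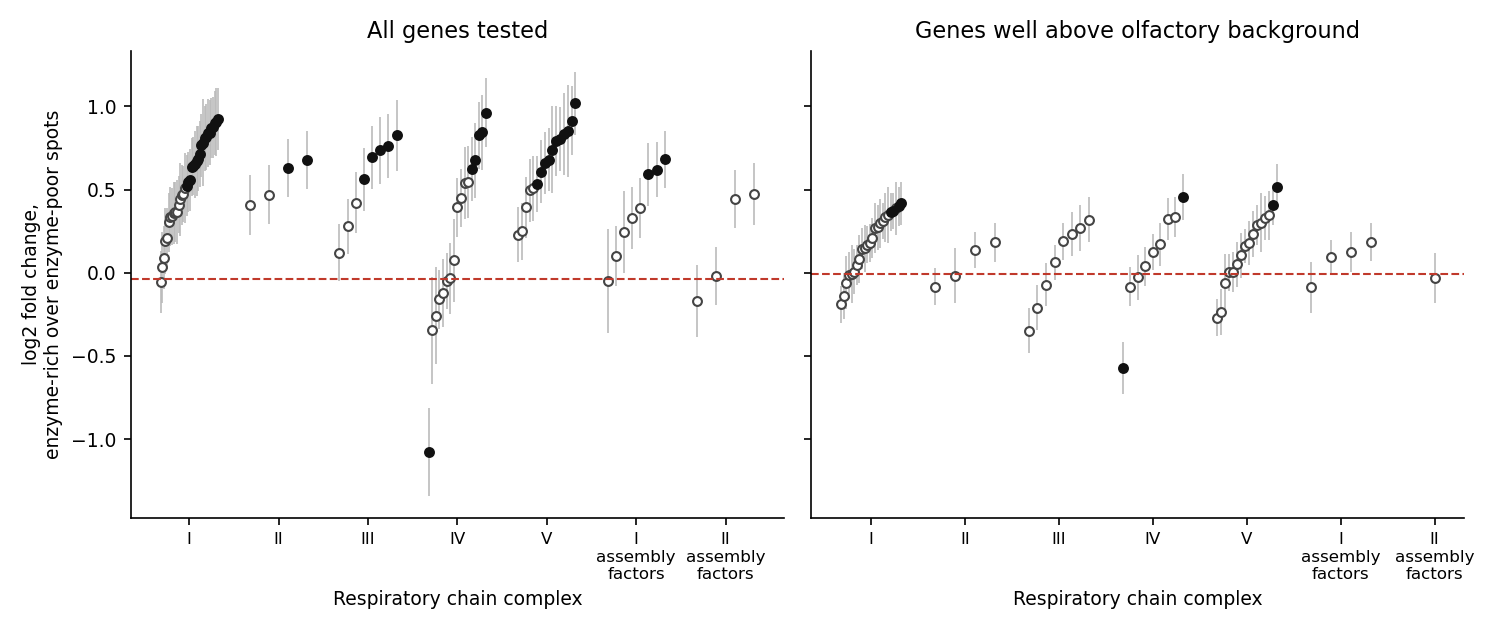
log2 fold change of each respiratory chain gene between enzyme-rich and enzyme-poor spots, by complex, in the fit of all genes (left) and of genes well above the olfactory receptor background (right). Filled points passed an adjusted p of 0.05, vertical lines are SE, and the dashed line is the median of all genes in the fit, -0.04 on the left and -0.01 on the right.

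The genes Atp5f1, Cox7a2l and Ndufa5, 3 in all, were called higher in the fit and in all 13 alternatives. The share of all genes called in every one of these was not counted, so this number has no background beside it. Atp5f1, the peripheral stalk subunit b of the ATP synthase, was at 159 in enzyme-rich and 140 in enzyme-poor spots of Ehmt2+/+ replicate 1 and at 109 and 54.1 in replicate 2. In Ehmt2fl/fl it was at 154 and 100.6 in replicate 1 and at 104 and 63.3 in replicate 2. It was higher in enzyme-rich spots of all 4 sections (log2 fold change 1.02, SE 0.19, edgeR adjusted p = 0.000237). The log2 fold changes of the fit carry TMM factors, which the levels in CPM do not, so they need not match. As log2 ratios of the levels, Atp5f1 had 0.18 and 1.01 in Ehmt2+/+ and 0.61 and 0.71 in Ehmt2fl/fl. Ndufa5, an accessory subunit of the matrix arm of complex I, was at 142 and 132, 167 and 109, 164 and 114, and 138 and 95.8 in the same order (log2 fold change 0.87, SE 0.18, edgeR adjusted p = 0.000925).

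Cox7a2l and Ndufb9 were higher in enzyme-rich spots too. Cox7a2l was at 388 and 362 in Ehmt2+/+ replicate 1, 152 and 119 in replicate 2, and in Ehmt2fl/fl at 136 and 71.8 and at 138 and 78.7 (log2 fold change 0.96, SE 0.21, edgeR adjusted p = 0.00118). Ndufb9 was at 143 and 150, 109 and 70.3, 62.6 and 34.1, and 57.6 and 34.9 (log2 fold change 0.90, SE 0.19, edgeR adjusted p = 0.00122), lower in the enzyme-rich spots of Ehmt2+/+ replicate 1. Among genes well above background Cox7a2l remained called (log2 fold change 0.46, SE 0.14, adjusted p = 0.0461) and Ndufb9 did not (0.39, SE 0.16, adjusted p = 0.111). The enzyme-poor part of Ehmt2+/+ replicate 2 and the enzyme-rich parts of both Ehmt2fl/fl sections had like shares of the 5 enzymes, 23.1%, 27.9% and 27.3%. There Cox7a2l was at 119 in Ehmt2+/+ against 136 and 138 in Ehmt2fl/fl, and Ndufb9 at 70.3 against 62.6 and 57.6. The background estimated from olfactory receptors was unlike in these parts, 36.2% against 17.3% and 25.0%, and was not taken off these levels. Ehmt2+/+ replicate 1 was not part of this comparison.

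Complex I and V genes made up most of the remaining calls. Ndufa13, needed for complex I assembly and also known as GRIM-19, had a log2 fold change of 0.92, and Ndufs7, which carries the last iron-sulfur cluster before ubiquinone, 0.90. Ndufab1, the mitochondrial acyl carrier protein, had 0.87, and Atp5o, which joins the stalk of the ATP synthase to its head, 0.91. All 4 were higher in enzyme-rich spots of all 4 sections and remained called among genes well above background. Of the core genes, Uqcrc1 had 0.83 (adjusted p = 0.00625, edgeR), Cox4i1 0.83 (adjusted p = 0.00382) and Atp5a1 0.74 (adjusted p = 0.0499), none of them called among genes well above background. Sdha had 0.40 and Ndufs1, the largest iron-sulfur subunit of complex I, 0.41, and neither was called. In all, 24 of the 93 genes were higher in enzyme-rich spots of all 4 sections, against 5.02% of all genes with UMIs in every sum. All 24 were among the 66 well above background, where the share of all genes was 21.8%.

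Cox6a2 and Cox7c went the other way. Cox6a2 was at 1.45 in enzyme-rich and 10.5 in enzyme-poor spots of Ehmt2+/+ replicate 1 and at 7.41 and 35.1 in replicate 2. In Ehmt2fl/fl it was at 18.5 and 29.6 and at 15.7 and 42.2 (log2 fold change -1.08, SE 0.26, edgeR adjusted p = 0.00404), lower in enzyme-rich spots of all 4 sections. These levels rest on 4 and 20, 6 and 26, 18 and 33, and 21 and 52 UMIs. In 3 sections Cox6a2 was near the olfactory level over tissue, and there the olfactory receptor share was also lower in enzyme-rich spots. Cox6a2 was not in the fit of genes well above background. With spots in 3 parts it was not called (log2 fold change -0.47, edgeR adjusted p = 0.117), and DESeq2 gave it no adjusted p. Islet spots, looked up after these values were seen, held 11 of the 47 Cox6a2 UMIs of Ehmt2+/+ replicate 1 in 307 of 6144 spots, and 2 of 76, 4 of 122 and 3 of 165 in the other sections. Cox7c, a small subunit of complex IV, was at 20.2 and 22.6, 55.6 and 74.3, 56.4 and 102, and 74.8 and 104. As log2 ratios of these levels, without TMM factors, Cox7c had -0.16 and -0.42 in Ehmt2+/+ and -0.86 and -0.47 in Ehmt2fl/fl. It was not called in the fit of all genes (log2 fold change -0.05, edgeR adjusted p = 0.882). Among genes well above background it was called lower (-0.57, SE 0.16, edgeR adjusted p = 0.0323). Over tissue Cox7c was at 21.4 CPM in Ehmt2+/+ replicate 1 and at 61.7, 71.7 and 86.1 in the other sections. It passed the limit of 50.1 CPM through these other sections, where the olfactory receptor share was also lower in enzyme-rich spots. That fit therefore does not free its difference from background.

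**Figure D5:**
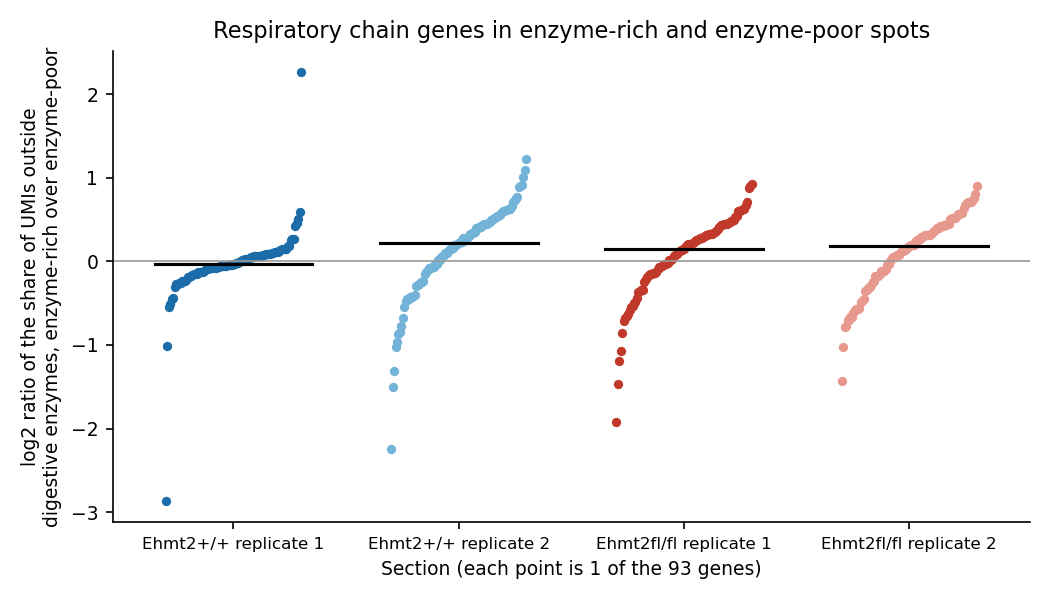
log2 ratio of each respiratory chain gene between enzyme-rich and enzyme-poor spots within each section, as shares of the UMIs outside digestive enzymes; each point is 1 of the 93 genes and bars are medians. The medians are -0.03 in Ehmt2+/+ replicate 1, 0.22 in Ehmt2+/+ replicate 2, and 0.15 and 0.19 in Ehmt2fl/fl replicates 1 and 2.

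The difference of the enzyme contrast between genotypes was tested as an interaction. It was called for 0.395% of 18240 genes and for 0 of the 93 (edgeR), with 1 at an unadjusted p under 0.05, against 6.12% of all genes, and 0 called by DESeq2. The lack of calls does not show that the contrast was alike in both genotypes. The median log2 fold change of the interaction over the 93 genes was 0.06. It was -0.35 without Ehmt2+/+ replicate 1 and 0.26 without Ehmt2+/+ replicate 2, so its sign depended on the section left out. Without Ehmt2fl/fl replicate 1 or 2 it was 0.06 and -0.02.

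Genes of other energy and mitochondrial pathways were called higher in enzyme-rich spots in varying number, and no gene of these lists was called lower. The counts are to be read beside the 11.3% of all genes called higher in this fit. That share includes genes near background, and 0 of 778 olfactory receptor genes were called higher. These lists were not counted among genes well above background, where the respiratory chain had 7 of 66 called higher against 8.58% of all genes. Of 15 electron carriers and related genes 6 were called, among them Coq9 and Coq5 of ubiquinone synthesis (1.05 and 0.78) and Cyc1, cytochrome c1 (0.88). Of 18 assembly genes of complexes III and IV 2 were called, Uqcc3 (0.80) and Cox17 (0.80), a share close to that of all genes, and of 16 TCA cycle genes 4, led by Cs, citrate synthase (0.73). Mitochondrial import had 6 of 15, quality control 6 of 15, antioxidants and uncouplers 4 of 12 and biogenesis regulators 1 of 13, Yy1 (0.71), below the share of all genes. Outside mitochondria, 3 of 15 genes of glycolysis were called, and of 19 proteasome genes 9, with a median of 0.52 beside 0.53 for the respiratory chain. Markers of other cell types moved with the same contrast. Of 8 islet markers 7 were called lower, of 4 blood markers 3, of 5 lymphoid markers 3, of 5 smooth muscle markers 2, of 5 fat markers 2, and of 6 macrophage and 6 fibroblast markers 1 each, against 2.64% of all genes. Of 7 duct markers 4 were called higher, and none of the neutrophil, skeletal muscle or brown fat markers was called. Their part in the respiratory chain values was not tested.

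In spots chosen by markers of other cell types the respiratory chain genes were not called. In islet, duct, smooth muscle, fat and macrophage spots 0 of the 93 were called against the rest of the section, where 0.89%, 0.0206%, 0.0786%, 0.28% and 0.0623% of all genes were (edgeR). At an unadjusted p under 0.05 there were 2, 4, 5, 13 and 8, all lower, against 4.06%, 3.13%, 4.01%, 6.25% and 4.57% of all genes that were lower at this p, and DESeq2 called 0. In islet spots the 2 were thus fewer than the share of all genes would give, and in duct and smooth muscle spots close to it. Islet spots held 1.68% and 1.27% respiratory chain UMIs in Ehmt2+/+ and 1.20% and 1.16% in Ehmt2fl/fl, against 1.70% and 1.33% and 1.32% and 1.10% in the rest. The fit of smooth muscle spots left out Ehmt2+/+ replicate 2, which had 12 such spots. The names give the markers that chose the spots and not their whole content. Duct markers took 1.10%, 1.41%, 1.16% and 1.11% in duct spots, against 0.53%, 0.46%, 0.43% and 0.40% in the rest. Digestive enzymes took 62.9%, 56.3%, 26.9% and 29.6% of UMIs there, against 65.1%, 54.3%, 22.6% and 21.7%. In Ehmt2+/+ replicate 1 duct spots had a median of 1513 UMIs against 6537. Without Ehmt2+/+ replicate 1, Cox7a2l was called higher in duct spots, where 36 of all 19675 genes tested were called higher.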

How the data were processed

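Per the labels and the methods, the authors counted CytAssist Visium libraries (mouse probe set) with Space Ranger (2.0.1 in the file headers) on mm10. What was deposited are raw UMI counts, 1 whole number for a gene in a spot. Spots over tissue were found from the histogram of UMIs, and 304 deprecated features were left out. Counts were summed per section, each 1 replicate, or per section and spot class. The test was edgeR 4.0.16 in R 4.3.3 (quasi-likelihood, TMM, filterByExpr minimum 10, Benjamini-Hochberg over all genes, threshold 0.05). Python 3.11.15 did the rest. The pipeline was tested on simulated counts without a background that differs between sections. Their dispersion was lower than the 0.362 of the genotype fit, so the simulation does not show how that fit performs. The labels do not state separate animals, so p-values measure the spread between sections. Genes and lists were chosen with earlier results of these data known. Named were called genes or else the 5 largest and smallest genotype changes, and a fixed set of core subunits, paralogues and X-linked genes. Of the enzyme changes, the 8 largest called ones and the 8 smallest, called or not, were named. Others are counted. Alternatives were DESeq2 1.42.0, other scalings, filters, spots and rankings, and each section left out. The fit of genes well above background took those at 5 times the median olfactory receptor level, 50.1 CPM, both as means over the 4 sections. A gene could thus pass through 1 genotype or 1 section. That fit and the background subtraction were chosen after seeing the data. Other limits were considered and not run.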

Additional observations from a re-analysis of the deposited data

How the results depend on the processing

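No paired analysis was done. The sample titles carry different numbers, but the labels do not say that the sections come from separate animals. The replicate numbers used here only name the sections of a genotype in order and tie none to an animal or batch of the other genotype. With 2 sections per genotype, a gene without a call is not shown to be unchanged, and the depth of Ehmt2+/+ replicate 1, its lower background and its genotype cannot be told apart. The calls of the enzyme contrast depended on scaling, depth and background, and the cause was not tested.

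For genotype, DESeq2 called 2 of the respiratory chain genes, with a median log2 fold change of -1.82, and the median was -0.64 with upper-quartile scaling, -0.44 among genes well above background and 0.74 without TMM factors, where the direction turned. Leaving out 1 section gave 0 to 85 calls and medians of -2.12 to -0.19, the most calls without Ehmt2+/+ replicate 2. Without TMM factors these log2 fold changes turned: Ndufs1 0.81, Ndufv1 0.58, Ndufb8 0.50, Ndufaf4 1.14, Sdha 0.79, Sdhb 0.76, Uqcrc1 0.31, Uqcrfs1 0.20, Cox4i1 0.28, Cox5a 0.47, Atp5a1 0.73, Atp5b 0.49, Cox6a1 0.46, Cox6b1 0.35, Cox7a2 0.044, Cox7b 0.73, Ndufa4 0.65, Atp5g1 1.13, Atp5g3 0.030, Ndufa1 0.017 and Ndufb11 0.59. Among genes well above background they turned for Ndufaf4 0.14 and Atp5g1 0.12. Over the sections left out in turn, the sign turned within these ranges: Ndufa4l2 -0.0052 to 0.72, Cox7b2 -0.084 to 1.62, Ndufaf4 -1.48 to 0.036, Sdha -2.44 to 0.36, Cox5a -2.78 to 0.12, Cox7a1 -0.094 to 0.99, Atp5g1 -1.45 to 0.0087.

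In the enzyme contrast, the number of genes called higher was 8 without TMM factors, 14 in spots with at least 1000 UMIs, 8 with spots thinned to 500 UMIs and 7 among genes well above background. In spots with at least 1000 UMIs the 14 were of 91 tested, against 592 of all 14964 genes tested. The number called lower was 7 without TMM factors and 0 with DESeq2, which gave no adjusted p for Cox6a2, with spots in 3 parts and with thinned spots, where Cox6a2 was not tested. Calls in either direction came to 15, 15, 8 and 8 in the first 4 of these settings. The median was 0.095 without TMM factors, 0.70 with spots ranked by all digestive enzymes and 0.15 among genes well above background. Leaving out 1 section gave 8 to 59 genes called higher and 9 to 60 in either direction, the lowest without Ehmt2+/+ replicate 2. Single genes turned with spots in 3 parts (Cox6b2 0.021, Sdhaf2 0.035, Ndufb4 0.086, Cox7c 0.018 and Cox7a1 -0.0093), in spots with at least 1000 UMIs (Cox6b2 0.35), in the ranking by all enzymes (Sdhaf2 0.092 and Ndufb4 0.061), without TMM factors (Ndufs1 -0.021, Sdha -0.036, Cox5a -0.043 and Cox7a1 -0.39), with thinned spots (Sdha -0.0080 and Cox7a1 -0.66) and among genes well above background (Ndufs1 -0.060, Sdha -0.085, Cox5a -0.084 and Cox7b -0.028). Over the sections left out they turned for Cox4i2 -0.62 to 0.078, Cox6b2 -0.31 to 0.052, Ndufb4 -0.26 to 0.081, Cox7c -0.16 to 0.10, Cox7a1 -0.093 to 0.25. In duct spots leaving out 1 section gave 0 to 1 calls.

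As a percentage of all UMIs the difference of genotype means in the respiratory chain share was 0.33 percentage points in place of -0.30, and the mean log2 ratio between enzyme-rich and enzyme-poor spots -0.36 in place of 0.23. Of 370 single-gene values under alternatives for genotype, 306 kept both direction and side of the threshold, 34 passed the threshold anew and 30 turned in sign. Among the 34 were passes in the fit without Ehmt2+/+ replicate 2, such as those of Ndufs1 and Sdha. That fit had no replicate Ehmt2+/+ section, so such passes are not evidence of a genotype difference. Of 513 for enzyme, 340 kept both, 134 lost the call, 15 gained it and 24 turned.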
